A study of Arabidopsis halleri with 12 samples.

Results

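A set of 8 genes whose transcript levels varied strongly between replicate arrays was followed in roots of Arabidopsis halleri, a zinc hyperaccumulator: AT4G10260, AT3G28510, AT4G32950, AT2G41730, TIL, HIS1-3, AT1G21520 and AT1G65500. They were 8 of the 13350 genes that a probe set named alone, each had 1 probe set, and they were chosen by symbol with their spread between replicates already known, so that spread is given as a description without a test. The groups were the AhNAS2-RNAi-1-2 line with 10 µM zinc added, the same line in control Hoagland medium, Langelsheim wild type (WT) with 10 µM zinc added, and WT in control medium. All plants were vegetative clones aged 5 weeks and grown hydroponically, each group had 3 arrays, and each array held the pooled roots of 3 plants. A single RNAi line was profiled, so suppression of AhNAS2 and other differences of that line cannot be told apart. The labels do not say which array came from which of the independent experiments, so the spread behind each p-value is that between pooled samples and may be partly technical.

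Values are log2 signals of an A. thaliana array, on which 1 unit is a doubling, and an A. halleri transcript also reads lower where it matches the probes less well. Array medians lay between 5.34 and 5.38, and all 8 genes had a mean above the median of all probe sets. As a check of the tissue, 3 of 12 root markers and 1 of 10 shoot markers could be read by name. PYK10, a beta-glucosidase abundant in roots, averaged 9.92, and the root hair expansins EXPA7 and EXPA18 averaged 8.02 and 6.99, whereas RCA, Rubisco activase of leaves, averaged 4.69.

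As background, plant roots meet drought, cold, heat, pathogens and shortage of oxygen with partly shared sets of transcripts that can change within hours. TIL is a temperature-induced lipocalin of the plasma membrane that protects A. thaliana from heat, cold and lipid oxidation. HIS1-3 is a linker histone variant that drought and abscisic acid induce. AT4G32950 belongs to the protein phosphatases 2C, a family that includes negative regulators of abscisic acid signalling, AT4G10260 to the fructokinase-like sugar kinases and AT3G28510 to the AAA-type ATPases. AT2G41730 is a gene of unassigned function whose transcript rises in A. thaliana short of oxygen, and for AT1G21520 and AT1G65500 no role is stated here. No sequences of these genes were used here.

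The membrane lipocalin TIL had log2 signals of 9.25, 9.28 and 10.27 in RNAi roots with zinc (replicates 1, 2 and 3, as in all lists here), 9.29, 9.25 and 10.85 in RNAi control roots, 8.79, 9.99 and 9.43 in WT roots with zinc, and 9.09, 7.49 and 10.44 in WT control roots. Replicate 3 was the highest array in 3 of the 4 groups and replicate 2 in WT with zinc. Within WT control the highest array exceeded the lowest 7.70-fold. All 4 groups overlapped.

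The fructokinase-like AT4G10260 stood at 5.92, 7.66 and 8.79 in RNAi roots with zinc, 7.03, 7.24 and 9.25 in RNAi control, 6.81, 8.56 and 7.59 in WT with zinc, and 8.58, 7.57 and 9.38 in WT control. The AAA-type ATPase gene AT3G28510 stood at 5.14, 5.58 and 6.47 in RNAi with zinc, 5.30, 5.38 and 7.15 in RNAi control, 5.17, 7.10 and 6.17 in WT with zinc, and 6.27, 4.63 and 7.25 in WT control. In both genes the same array was highest in each group as for TIL, and the groups overlapped. The highest RNAi zinc array exceeded the lowest 7.28-fold for AT4G10260 and 2.52-fold for AT3G28510. In each group the lowest array of AT3G28510 lay below the array medians, where differences between low signals are least certain.

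AT2G41730, the oxygen-related transcript, had 5.44, 6.04 and 7.76 in RNAi roots with zinc, 6.06, 6.28 and 8.08 in RNAi control, 6.15, 7.02 and 6.24 in WT with zinc, and 6.33, 5.63 and 7.82 in WT control. Its probe set is of a type that can also bind similar transcripts, so a part of its signal may come from them. It was highest in replicate 3 of both RNAi groups and of WT control, with the other arrays of those groups at least 1.49 lower. In WT with zinc its arrays lay within a 1.83-fold range.

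AT1G21520 had 5.04, 4.82 and 6.74 in RNAi roots with zinc, 5.07, 4.90 and 6.60 in RNAi control, 5.14, 6.20 and 6.29 in WT with zinc, and 5.07, 4.66 and 7.15 in WT control. Its 7 lowest arrays lay at 5.14 or less, below the array medians, where differences between low signals are least certain. AT1G65500 had 6.81, 6.70 and 7.90 in RNAi with zinc, 6.72, 6.29 and 7.88 in RNAi control, 5.95, 7.28 and 7.68 in WT with zinc, and 7.39, 4.75 and 6.88 in WT control. Unlike the genes above, AT1G65500 was highest in replicate 1 of WT control, and its lowest array of all was replicate 2 of that group. That array, at 4.75, also lay below the array medians.

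HIS1-3, the linker histone, had 5.53, 8.19 and 7.72 in RNAi roots with zinc, 8.61, 8.19 and 8.19 in RNAi control, 4.96, 7.41 and 6.89 in WT with zinc, and 8.28, 5.31 and 7.26 in WT control. In 3 groups 1 array lay far below the other 2, whereas the RNAi control arrays lay within 1.34-fold of each other. The low arrays of WT with zinc (4.96) and WT control (5.31) lay below the array medians, where differences between low signals are least certain. The phosphatase gene AT4G32950 had 7.57, 10.90 and 10.33 in RNAi with zinc, 9.52, 9.57 and 10.47 in RNAi control, 8.06, 10.75 and 9.79 in WT with zinc, and 10.74, 9.01 and 10.57 in WT control. Its lowest arrays outside RNAi control were those of HIS1-3, namely replicate 1 of both zinc groups and replicate 2 of WT control. TIL, AT4G10260, AT3G28510 and AT2G41730 were lowest in the same arrays of these groups. In RNAi control AT4G32950 was lowest in replicate 1 and HIS1-3 in replicate 2.

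**Figure D1:**
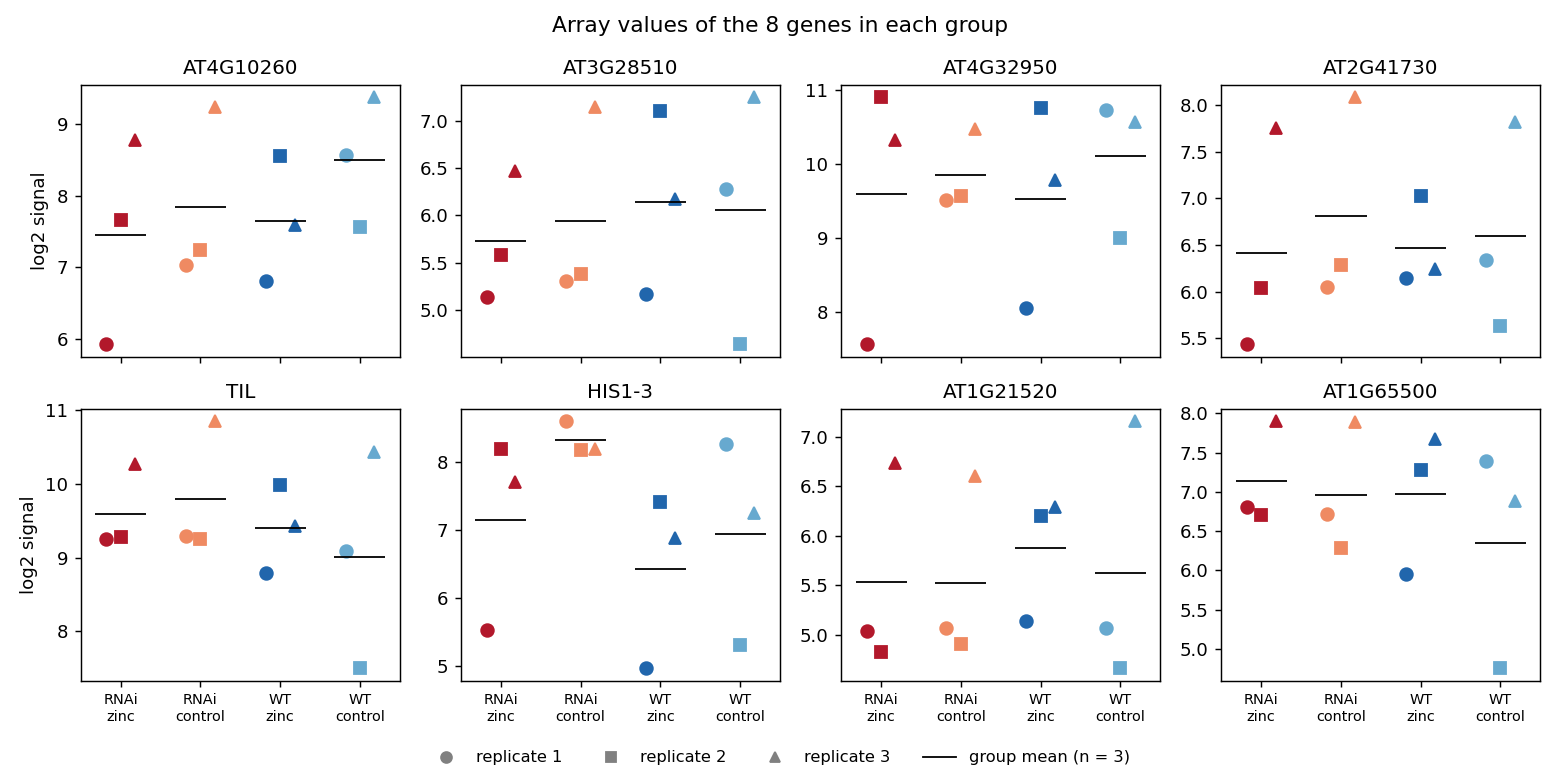
Log2 signal (vertical axis) of the 8 genes on each array, with groups side by side, a marker shape for each replicate number and a line at each group mean (n = 3 arrays). Replicate 3 is the highest array of RNAi zinc, RNAi control and WT control roots for TIL, AT4G10260, AT3G28510, AT2G41730 and AT1G21520. All of the genes but AT1G21520 and AT1G65500 are lowest in replicate 1 of both zinc groups.

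Pooled over the 4 groups, the within-group SD of the 8 genes lay between 0.96 for TIL and 1.25 for AT4G32950, with a median of 1.03 log2 units against 0.14 over all 22746 probe sets tested. These values chose the genes and support nothing further. Of the 32 probe sets at least as variable as TIL, 8 were these genes, 4 carried another single gene, 2 several genes and 18 none. The median SD of the 8 genes was 1.13 in RNAi roots with zinc, 0.92 in RNAi control, 0.89 in WT with zinc and 1.33 in WT control. HIS1-3 had an SD of 0.24 in RNAi control, against 1.29 to 1.51 in the other groups. Within groups lay 67.3% of the total variation of HIS1-3 and 97.2% of that of AT1G21520, against a median of 71.7% over all probe sets.

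**Figure D2:**
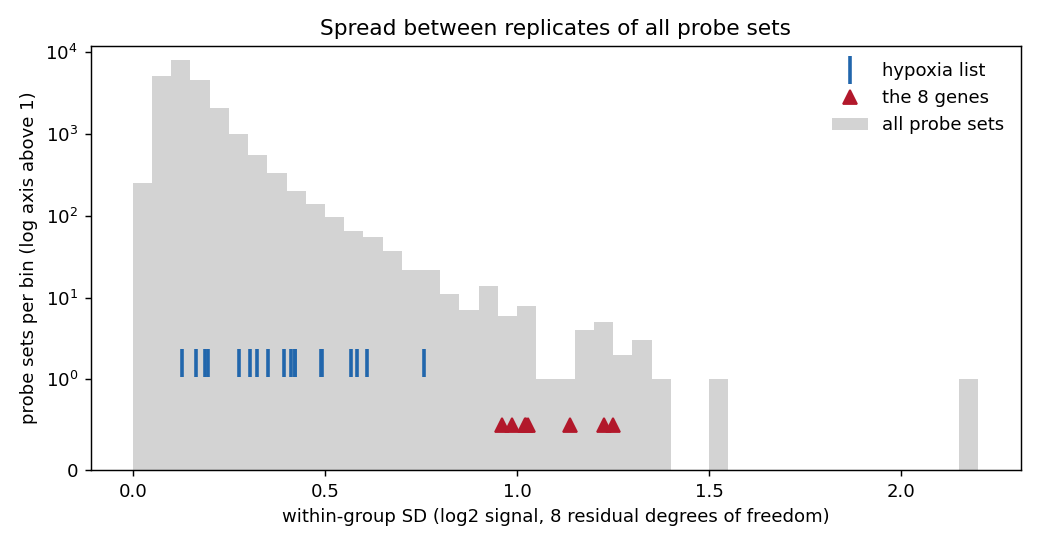
Number of probe sets (vertical axis, logarithmic above 1) by within-group SD of the log2 signal (horizontal axis), with the 8 genes as triangles and the 18 measured genes of the hypoxia list as ticks. The 8 genes lie between 0.96 and 1.25, far from the median of all probe sets at 0.14, and the hypoxia genes lie between 0.13 and 0.76.

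The 8 genes deviated together on many arrays. All 8 lay above their group mean on 3 arrays, namely replicate 3 of RNAi zinc, replicate 2 of WT zinc and replicate 3 of WT control. None did on 4 arrays, namely replicate 1 of RNAi zinc, replicate 2 of RNAi control, replicate 1 of WT zinc and replicate 2 of WT control. The remaining arrays were mixed, and on replicate 2 of RNAi zinc HIS1-3 and AT4G32950 lay 1.05 and 1.30 above their group mean while AT1G21520 lay 0.71 below it. Replicate 3 of RNAi control had 7 of 8 above, with HIS1-3 as the exception.

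Among the deviations from group means, TIL, AT3G28510, AT2G41730, AT1G21520 and AT4G10260 had Pearson's r from 0.81 to 0.97 in their 10 pairs over the 12 arrays. HIS1-3 and AT4G32950 formed a close pair (r = 0.91, Spearman's rho = 0.87). Without the 2 arrays farthest from the median deviation of AT4G32950 their r was 0.83. Between this pair and those 5 genes r ran from 0.35, for HIS1-3 and AT1G21520, to 0.83, for AT4G32950 and AT4G10260. For HIS1-3 and AT1G21520 r fell to 0.10 without the 2 arrays farthest from the median deviation of HIS1-3. Arrays chosen by the other gene of a pair were not left out. AT1G65500 had r at 0.85 with AT3G28510 and 0.83 with TIL, 0.72 with AT1G21520 and with AT4G10260, 0.69 with HIS1-3, 0.68 with AT2G41730 and 0.63 with AT4G32950. These correlations describe the genes' choice, share the same arrays and carry no p. The largest axis of within-group variation over all probe sets held 33.6% of that variation, and by size of loading the 8 genes ranked between 7 and 18 on it, all in 1 direction. The axis was taken from unscaled deviations, so loadings grow with a gene's spread, and high ranks follow largely from the choice of the genes.

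**Figure D3:**
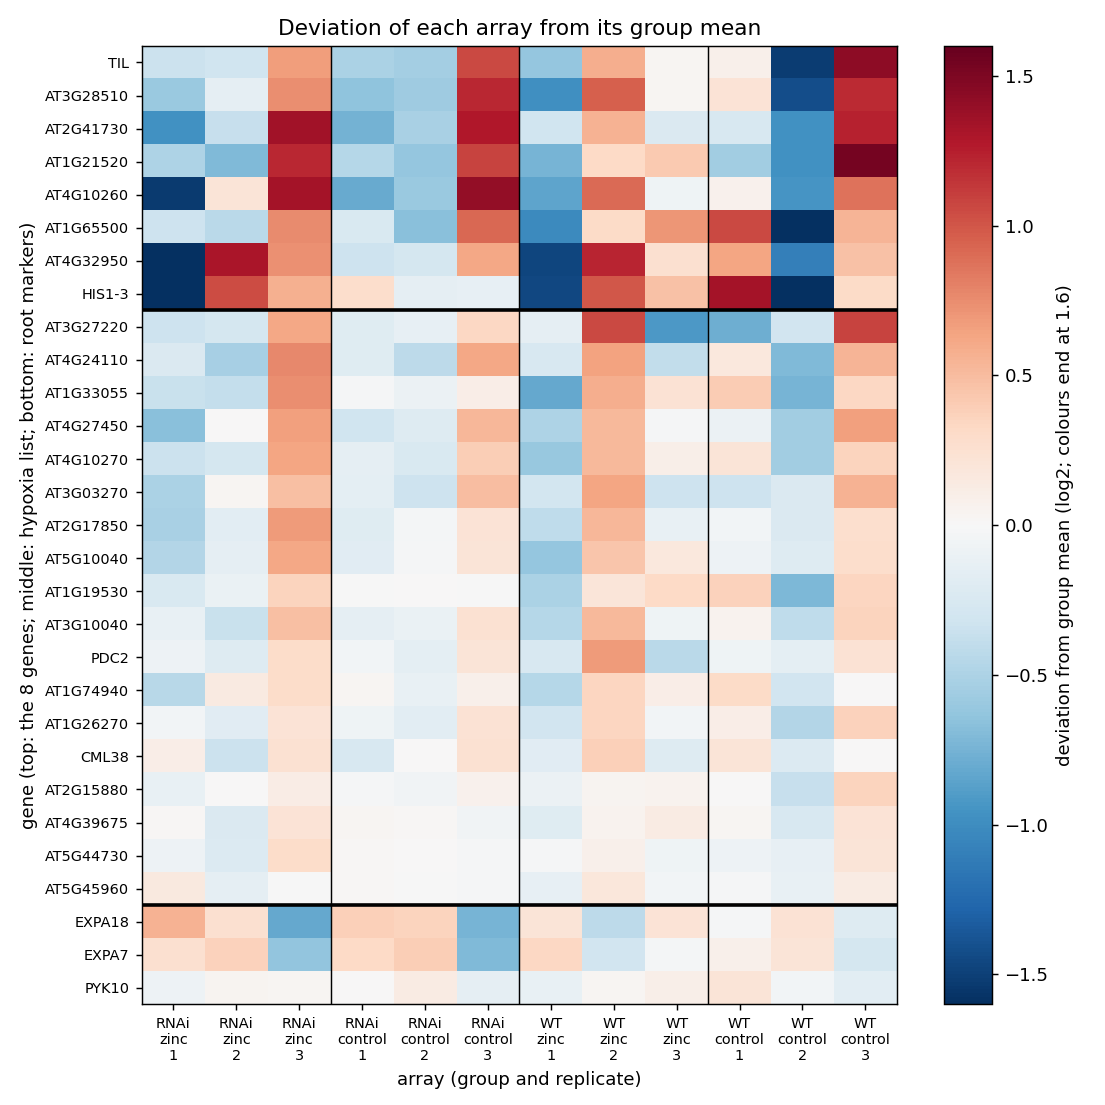
Deviation of each array (columns, by group and replicate) from its group mean in log2 units (colour, red above and blue below, ending at 1.6) for the 8 genes at the top, the 18 measured hypoxia genes in the middle and 3 root markers at the bottom. The 3 arrays on which all 8 genes are red, such as replicate 2 of WT zinc, are red in most hypoxia genes and blue in EXPA7 and EXPA18.

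Genes that respond to shortage of oxygen in A. thaliana followed the same arrays. Of 41 such genes drawn up as a list, 18 had a named probe set, and 12 of the 18 (66.7%) correlated above 0.8 with the mean scaled deviation of the 8 genes, against 3.05% of all other probe sets. Both the 8 genes and this list were chosen with earlier results of these data known. The share over all other probe sets is not matched for spread, and whether shortage of oxygen played a part was not tested. All 18 correlations were positive, from 0.36 for AT5G45960 to 0.96 for AT4G27450, and with AT2G41730 taken out of the mean 11 exceeded 0.8. Of the 18 genes 13 had a mean above the median of all probe sets, and 11 of those 13 correlated above 0.8. The rest lay lower, where differences between low signals are least certain. The list's genes also varied more than most: their median within-group SD was 0.40, and 16 of 18 lay above the 75th percentile of all probe sets, which was 0.18. The count of 12 fell to 7 without replicate 2 of WT control and to 9 with the RNA quality measure described below as a covariate.

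AT4G27450 had 10.75, 11.43 and 12.08 in RNAi roots with zinc, 11.01, 11.12 and 11.86 in RNAi control, 10.73, 11.75 and 11.21 in WT with zinc, and 11.24, 10.77 and 11.98 in WT control. Its highest array was that of TIL in each of the 4 groups. AT4G10270, of a family of wound-responsive proteins, had 9.33, 9.41 and 10.31 in RNAi with zinc, 9.11, 9.01 and 9.65 in RNAi control, 8.73, 9.84 and 9.42 in WT with zinc, and 9.67, 8.90 and 9.82 in WT control (r = 0.94). The most variable members of the list were AT3G27220 (SD 0.76, r = 0.57), AT4G24110 (SD 0.61, r = 0.85) and AT1G33055 (SD 0.58, r = 0.85), and PDC2, a pyruvate decarboxylase of fermentation, had an SD of 0.35 and r = 0.62. Averaged over the 18 genes, the array that was highest and the array that was lowest in each group were those of the 8 genes in 4 of 4 groups.

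The counts differed among the 8 genes. AT3G28510 correlated above 0.8 with 8 of the 18 genes, AT2G41730 with 7, and TIL, AT4G10260 and AT1G21520 with 6 each. AT1G65500 did so with 4, and HIS1-3 and AT4G32950 with 2 each. For all other probe sets the share above 0.8 lay between 1.42% for AT1G65500 and 2.95% for AT4G10260.

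Of the 40 measured genes on the other stress and family lists, 5 (12.5%) correlated above 0.8. Among 10 measured AAA-type ATPase relatives of AT3G28510, 3 did, and AT5G17760 led them (r = 0.93, SD 0.47), with AT3G28580 (r = 0.83, SD 0.31) and AT5G57480 (r = 0.83, SD 0.29) next. AT3G28580 averaged 4.33 and AT5G57480 4.90, below the array medians. Of 5 fructokinases 1 did, AT5G51830 (r = 0.80, SD 0.23), while AT3G59480 had the largest SD (0.36, r = 0.20). In sugar starvation genes, 1 of 2 measured did, AT3G15450 (r = 0.94, SD 0.60), with 8.16, 8.54 and 9.72 in RNAi roots with zinc against 8.68, 8.65 and 9.15 in RNAi control.

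None of the 9 measured phosphatase 2C relatives of AT4G32950 exceeded 0.8, and the most variable was AT3G16800 (SD 0.44, r = 0.47). The linker histones AT1G06760 and AT2G30620 had r = -0.46 and r = -0.75, and the chloroplast lipocalin CHL had r = -0.25. Of 5 measured abscisic acid and dehydration genes COR47, a dehydrin, varied most (SD 0.32, r = -0.20). Of 3 heat shock genes it was the small heat shock protein gene AT1G53540 (SD 0.26, r = 0.76), and of 3 oxidative stress genes AT2G41380 (SD 0.53, r = 0.68). No gene of the salicylic acid and cold lists had a named probe set, and these were not analysed here.

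Only 4 other single-gene probe sets were as variable as the 8 genes, and AT2G38800, related to calmodulin-binding proteins, was the most like them (r = 0.84, rho = 0.87). Its r was 0.77 without the 2 arrays farthest from the median of the mean scaled deviation of the 8 genes. It had 3.52, 3.78 and 4.74 in RNAi roots with zinc, 3.36, 3.12 and 4.71 in RNAi control, 7.94, 8.69 and 8.09 in WT with zinc, and 8.64, 5.41 and 7.91 in WT control. All of its RNAi arrays lay below the array medians, where differences between low signals are least certain. AT1G64590, a short-chain dehydrogenase, had r = 0.32 and AT4G22212, a defensin-like gene, r = -0.05. AT5G60760 ran in the opposite direction (r = -0.73, rho = -0.82).

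Other measures moved with these arrays. In each of the 4 groups the array lowest in the 8 genes had the smallest difference between 3' and 5' probe sets of the internal controls, a measure of RNA quality that ran from 1.09 to 1.27 over all arrays, and the array highest in the 8 genes had the largest in 1 of 4 groups. With this difference as a covariate the median within-group SD of the 8 genes was 0.93. The change differed between genes. For RNAi against WT the SE of HIS1-3 in added zinc went from 0.83 to 0.43. Over both media that of AT4G32950 went from 0.60 to 0.42, of AT3G28510 from 0.49 to 0.47 and of AT2G41730 from 0.49 to 0.51. The mean of the 3 root markers ran from 7.68 to 8.39 in RNAi roots with zinc, 7.89 to 8.71 in RNAi control, 7.91 to 8.29 in WT with zinc and 8.31 to 8.66 in WT control. Its lowest array was the highest of the 8 genes in all 4 groups, led by EXPA18 (r = -0.83) and EXPA7 (r = -0.83), while PYK10 had r = 0.01. RCA stayed between 4.57 and 5.06 (r = -0.59). The level of the hybridization spike-ins, which carry no plant RNA, was lowest on the array lowest in the 8 genes in 3 of 4 groups. It was highest on the array highest in the 8 genes in 2 of 4 groups. Fewer root hair cells and less RNA per cell cannot be told apart in pooled roots. The part of root hairs, of RNA quality and of the spike-in level in the result was not tested.

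RNAi and WT roots were compared to ask whether the genes differed with suppression of AhNAS2. The level of the targeted gene was not read here, so the labels of the RNAi arrays were not checked against it. Over both media 0 of the 8 genes passed limma's threshold of 0.05 on the adjusted p, against 1.05% of all probe sets, and 0 passed at an unadjusted p under 0.05, against 13.3%. In 0 of 8 genes the groups were free of overlap, against 1.7% of all probe sets. HIS1-3 had the largest difference, at 7.15 ± 1.42 in RNAi and 6.42 ± 1.29 in WT with zinc, and at 8.33 ± 0.24 in RNAi and 6.95 ± 1.51 in WT in control medium (SD, n = 3). Its log2 fold change over both media was 1.05 (SE 0.58, 95% interval -0.22 to 2.33, limma adjusted p = 0.482). TIL came next at 0.49 (interval -0.51 to 1.50), with 9.60 ± 0.58 in RNAi and 9.40 ± 0.60 in WT with zinc, and 9.80 ± 0.91 in RNAi and 9.01 ± 1.47 in WT in control medium.

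The other 6 genes lay between -0.43 and 0.39 over both media. AT1G65500 was at 0.39 (interval -0.64 to 1.42), AT2G41730 at 0.08 (-0.99 to 1.14), AT4G32950 at -0.09 (-1.39 to 1.21), AT1G21520 at -0.22 (-1.29 to 0.84), AT3G28510 at -0.26 (-1.33 to 0.81) and AT4G10260 at -0.43 (-1.62 to 0.75). All 8 intervals included 0, and each reached up to 0.75 or more. The median SE was 0.49 for the 8 genes against 0.077 over all probe sets, and the median fold change was -0.01 for the 8 genes against -0.001 over all.

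**Figure D4:**
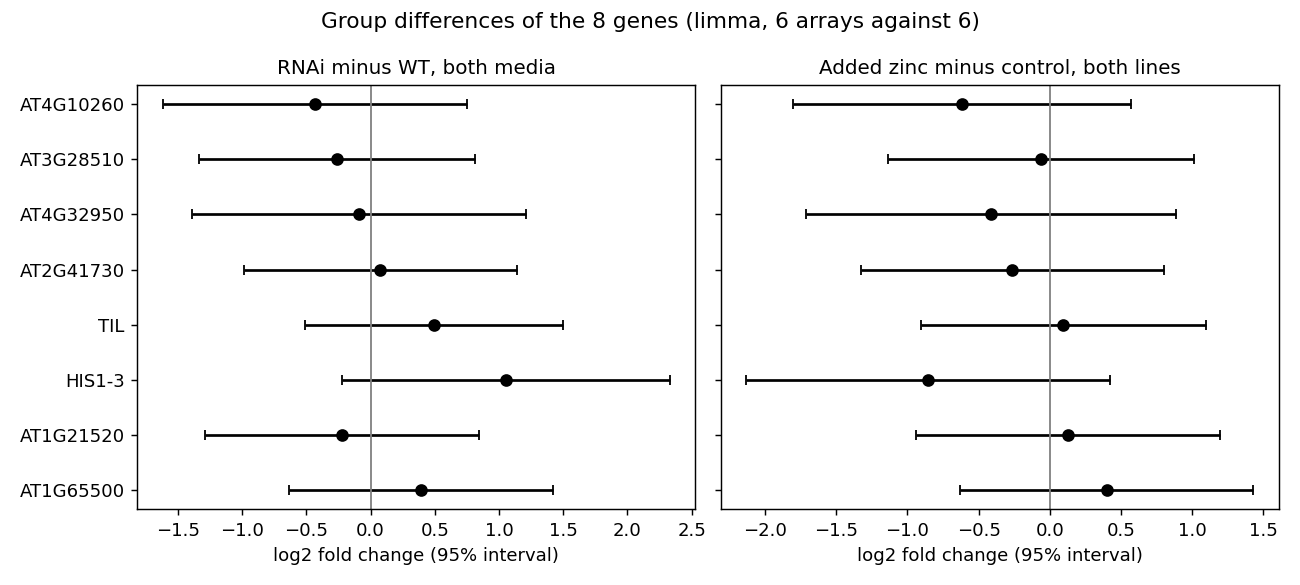
Log2 fold change (horizontal axis) with its 95% interval for each of the 8 genes, RNAi minus WT over both media on the left and added zinc minus control over both lines on the right (limma, 6 arrays against 6). Every interval includes 0, and HIS1-3 lies farthest from 0 in both, at 1.05 and -0.85.

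Within added zinc the differences between the lines ran from -0.42 for AT3G28510 to 0.73 for HIS1-3, with 0 of 8 past the threshold against 0.0528% of all probe sets (lowest adjusted p = 0.913). Within control medium they ran from -0.67 for AT4G10260 to 1.38 for HIS1-3 (SE 0.83, interval -0.42 to 3.19, adjusted p = 0.694), with 0 of 8 past it against 0.022%. At an unadjusted p under 0.05 there were 0 of 8 in each medium, against 7.72% of all in added zinc and 8.76% in control medium. In 0 of 8 genes the groups were free of overlap, against 12.7% of all probe sets in added zinc and 13.9% in control medium. Without single arrays the value of HIS1-3 in added zinc ran from -0.0032 to 1.54. With the 3' minus 5' difference as a covariate HIS1-3 was at 0.85 (SE 0.43) in added zinc and 0.60 (SE 0.45) in control medium.

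Media were compared to ask whether the genes responded to added zinc. Over both lines 0 of 8 passed, as did 0% of all probe sets, and at an unadjusted p under 0.05 the counts were 0 of 8 and 7.62% of all. In 0 of 8 genes the groups were free of overlap, against 0.514% of all. HIS1-3 was at -0.85 (SE 0.58, interval -2.13 to 0.42, adjusted p = 0.797) and AT4G10260 at -0.62 (interval -1.80 to 0.57). AT4G32950 was at -0.41, AT2G41730 at -0.26 and AT3G28510 at -0.06, and TIL at 0.10, AT1G21520 at 0.13 and AT1G65500 at 0.40 (interval -0.63 to 1.43). The median of the 8 was -0.16, against -0.004 over all probe sets.

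In RNAi roots the zinc differences ran from -1.18 for HIS1-3 (interval -2.99 to 0.62) to 0.17 for AT1G65500, and in WT roots from -0.85 for AT4G10260 (interval -2.53 to 0.82) to 0.63 for AT1G65500. In each line 0 of 8 passed, as did 0% of all probe sets, and at an unadjusted p under 0.05 there were 0 of 8 against 4.52% of all in RNAi and 5.04% in WT. In 0 of 8 genes the groups were free of overlap in each line, against 10% of all in RNAi and 10.3% in WT. Hybridization spike-ins, which carry no plant RNA, averaged 9.83 to 10.08 on zinc arrays against 10.14 to 10.45 on control arrays. With their level as a covariate the value of HIS1-3 over both lines was 1.38 and that of AT4G32950 1.28, and the part of the spike-in level in these values cannot be told apart from that of zinc.

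The interaction of line and zinc, the zinc effect in RNAi minus that in WT, ran from -0.65 for HIS1-3 (SE 1.17, interval -3.21 to 1.90) to 0.47 for AT4G10260 (SE 1.08, interval -1.90 to 2.84). Of the 8 genes 0 passed with limma, as did 0% of all probe sets, and 0 of 8 and 2.18% of all had an unadjusted p under 0.05. With limma 0 of the 18 hypoxia genes passed in any of the 7 comparisons (lowest adjusted p = 0.233), and at an unadjusted p under 0.05 there was 1 of 18 for RNAi against WT over both media, against 13.3% of all probe sets, 1 of 18 for zinc in WT, against 5.04%, and 2 of 18 for zinc over both lines, against 7.62%. The other 4 comparisons had 0 of 18. Their median fold change was 0.07 for RNAi against WT over both media and 0.04 for zinc over both lines. AT1G19530 had the largest difference between the lines among them (0.57, adjusted p = 0.233). Of the 62 measured genes on all lists 0 passed with limma in any comparison, and 9 (14.5%) had an unadjusted p under 0.05 for RNAi against WT over both media, a share near the 13.3% of all probe sets. Nearest to the threshold there was the fructokinase AT3G59480, at -0.80 in RNAi against WT over both media (adjusted p = 0.0564).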

How the data were processed

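Root RNA of 12 samples was hybridised to single-colour arrays. The deposited values are log2 summaries per probe set, made by the authors with RMA and the affy package per the submitters' processing notes; the sources used here give no versions, background or quantile steps or probe definition. They were used as deposited, from 2.46 to 14.3, with no further scaling or filter. Of 22810 probe sets 64 controls were left out. The platform annotation paired 13513 probe sets with 1 gene and 503 with several, and 8730 were unlisted. The number of arrays limits the precision.

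All 12 arrays entered 1 limma fit of the 4 group means (limma 3.58.1, run in R 4.3.3; two-sided, Benjamini-Hochberg over 22746 probe sets, threshold 0.05), and the procedure was tested on simulated data. Deviations are array values minus their group mean, and the members' mean scaled deviation divides each by its gene's within-group SD. The members and the 13 gene lists were chosen with earlier results of these data known. Named were the 8 genes, per list up to 3 genes with the largest SD and up to 4 past the threshold, and the non-members as variable as the 8 genes whose deviations were most and least like theirs; AT4G27450, AT4G10270, AT5G45960, PDC2, AT1G19530, AT5G17760 and other list genes beyond this were named after their values were seen.

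Labels number replicates 1 to 3 in each group. In control medium deviations of same-numbered RNAi and WT arrays correlated above 0.1, the cutoff used here, in 3 of 3 pairs (0.16 to 0.48). In added zinc 1 of 3 did, and between media 2 of 3 in RNAi and 0 of 3 in WT. Arrays of unlike number were not compared, so these values do not show that a replicate number marks a shared experiment. Alternatives were the replicate block, other scalings, a filter on dim probe sets, array weights, another variance model, covariates and leaving out single arrays.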

Additional observations from a re-analysis of the deposited data

How the results depend on the processing

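No alternative brought any of the 8 genes past the threshold in any comparison, the replicate block included (0 of 8 over all arrays and within the groups compared), so the block changed no call. For all probe sets the count of calls for RNAi against WT was 239 over both media and 165 with the block over all arrays, and in control medium it was 5, 3 with that block and 8 with the block within that medium. With array weights AT4G32950 and AT2G41730 over both media were at 0.0071 and -0.0082, AT3G28510 with zinc over both lines at 0.014 and the interaction of HIS1-3 at 0.048. With the spike-in level as covariate HIS1-3 was at 1.39 for zinc in RNAi, 1.38 for zinc over both lines and 0.030 for the interaction, AT4G32950 at 1.28 and AT3G28510 at 0.35 for zinc over both lines. With the 3' minus 5' difference as covariate TIL was at -0.0049 for zinc over both lines and HIS1-3 at 0.25 for the interaction. The cause of these changes of sign was not tested.

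Single arrays turned the sign of many values. With each array left out in turn, RNAi against WT over both media ran from -0.52 to 0.16 for AT1G21520, -0.0046 to 0.66 for AT1G65500, -0.26 to 0.38 for AT2G41730, -0.62 to 0.037 for AT3G28510 and -0.46 to 0.42 for AT4G32950, and in added zinc from -0.91 to 0.061 for AT3G28510 and -0.0032 to 1.54 for HIS1-3. Zinc over both lines ran from -0.17 to 0.51 for AT1G21520, -0.60 to 0.056 for AT2G41730, -0.41 to 0.24 for AT3G28510, -0.74 to 0.10 for AT4G32950 and -0.28 to 0.45 for TIL. For AT1G65500 zinc ran from -0.21 to 0.63 in RNAi and from -0.17 to 1.15 in WT. The interaction ran from -0.19 to 1.24 for AT4G10260 and -1.38 to 0.16 for HIS1-3. Of 30 further fold changes 29 changed sign in at least 1 alternative. The number of hypoxia genes above 0.8, an alternative chosen after seeing the data, was 7 to 12 without single arrays. The median within-group SD of the 8 genes kept within 0.97 to 1.09 without single arrays. With the 3' minus 5' difference as covariate it was 0.93. Background correction could not be varied, since scanner files were not used here.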
